A study of Homo sapiens with 15 samples.

Results

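The 10 genes described here encode the enzymes of de novo purine synthesis and of its guanine branch: PRPS1, PRPS2, PPAT, GART, PFAS, PAICS, ADSL, ATIC, IMPDH2 and GMPS. They were taken by symbol from a table of 18322 genes, and all 10 were in it and passed the filter on low values. RNA had been sequenced from A375, a human melanoma line with an activating BRAF mutation, in 15 libraries. They fall into 5 groups of 3, which the series calls biological triplicates. Parental is A375 itself, and Resistant is 1 clonal population resistant to PLX4720, an inhibitor of mutant BRAF. MYC T58A is the parental line with T58A, a long-lived form of the transcription factor MYC. The remaining 6 libraries are labelled Resistant-shMYC1 or Resistant-shMYC2, after hairpins against MYC, and their identity as Resistant cells rests on these labels. The promoter that drives MYC T58A, whether the resistant cells were in drug at harvest and the number of clones behind the other groups were not stated in the labels.

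Purine rings are built on ribose in steps that start from phosphoribosyl pyrophosphate (PRPP). PRPS1 and PRPS2 make PRPP, PPAT commits it to the pathway, and GART, PFAS, PAICS, ADSL and ATIC carry out the remaining steps to inosine monophosphate. IMPDH2 and GMPS then turn inosine monophosphate into guanosine monophosphate, while adenylosuccinate synthase and ADSL lead to adenosine monophosphate. The pathway is known for high activity in dividing tumour cells, and several of its genes are known MYC targets in other cells.

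Values are normalized reads per gene, in library order and then as mean ± SD of 3 libraries. Total reads in genes ran from 24222192 to 30399644 per library. Genes with no read numbered 1636 to 1694 in the libraries labelled shMYC2, 470 to 496 in those labelled shMYC1 and 296 to 665 in the others. MYC itself went against both hairpin labels, at 302.5 ± 28.1 in Resistant, 486.0 ± 29.5 in the libraries labelled shMYC1 and 7817 ± 260 in those labelled shMYC2, with 422.7 ± 11.9 in Parental and 3511 ± 94.4 in MYC T58A. The hairpin comparisons are therefore given as comparisons of libraries by their labels. The labels call the cells melanocytes. Of 8 melanocyte markers 6 were in the table, and SOX10, which maintains that lineage, stood at 5282 ± 149 in Parental and 11890.0 ± 1138 in the libraries labelled shMYC1 but at 7.5 ± 2.52 in Resistant, 9.14 ± 1.99 in MYC T58A and 19.5 ± 3.74 in those labelled shMYC2. S100B, another marker, was likewise higher in Parental (104.3 ± 11.7) and the libraries labelled shMYC1 (545.5 ± 88.7) than in the other groups (means of at most 4.12), but not all markers followed SOX10. MITF, the lineage's central transcription factor, was higher in Resistant (3748 ± 233) and MYC T58A (3592 ± 194) than in Parental (1509 ± 1.76), and stood at 1619.7 ± 118 in the libraries labelled shMYC1 and 172.7 ± 23 in those labelled shMYC2. DCT, a pigment enzyme, was at 1.04 ± 1.04 in Parental and 78.6 ± 5.13 in MYC T58A. Of the 6 markers tested, 3 were called higher and 3 lower in MYC T58A than in Parental, beside 30.1% and 33.7% of all genes. In Resistant 1 and 2 were, beside 27.2% and 24.4%. Summed reads of 9 fibroblast markers ran from 538.9 to 611.4 in Parental, 3971 to 4189 in Resistant, 432.2 to 446.2 in the libraries labelled shMYC1, 2444 to 2543 in those labelled shMYC2 and 564.1 to 634.6 in MYC T58A. Different genes made up these sums. LUM, a matrix proteoglycan, stood at 3051 ± 85.1 in Resistant and 3.86 ± 1.32 in the libraries labelled shMYC2, whereas THY1, a surface glycoprotein, stood at 2.44 ± 3.46 and 1949.5 ± 39.8. In MYC T58A 4 of the 9 were called higher and 3 lower than in Parental, beside 30.1% and 33.7% of all genes. The collagen gene COL1A1 was down from 104.9 ± 7.38 to 27 ± 3.77. Summed reads of 5 keratinocyte or epithelial markers, mostly KRT18 and KRT8, ran from 7921 to 8136 in Parental, 4320 to 4495 in Resistant, 5413 to 5952 in the libraries labelled shMYC1, 2913 to 3064 in those labelled shMYC2 and 11684 to 12939 in MYC T58A. Those of 4 endothelial markers ran from 46.1 to 57.4, 55.5 to 75.6, 125.3 to 164.4, 24.8 to 44.8 and 10.6 to 17.0 in the same order. These sums moved with the groups, and their part in the results was not tested. In bulk RNA, fewer cells of a kind and less RNA per cell cannot be told apart.

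The start regions of 4 of the enzyme genes are shown because PPAT and PAICS lie back to back and share 1 of them, ATIC is the member with 2 E-boxes, and PRPS2 had the largest rise with MYC T58A. RefSeq windows (GRCh38.p14, 250 bases before the start to 50 after it) were found for 8 of the 10 members, all but ADSL and IMPDH2, with 12 windows in all. The E-box CACGTG, the core motif that MYC and MAX bind, is printed in capitals. The 4 windows are PPAT on the minus strand at chr4:56435566-56435865, PAICS on the plus strand at chr4:56435502-56435801, ATIC on the plus strand at chr2:215311809-215312108 and PRPS2 on the plus strand at chrX:12791162-12791461.
PPAT: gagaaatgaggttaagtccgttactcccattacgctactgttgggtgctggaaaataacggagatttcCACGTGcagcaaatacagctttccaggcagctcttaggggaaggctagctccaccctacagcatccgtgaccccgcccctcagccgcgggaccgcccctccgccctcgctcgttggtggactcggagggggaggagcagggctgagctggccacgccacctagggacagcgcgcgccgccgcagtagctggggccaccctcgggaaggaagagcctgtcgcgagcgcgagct
PAICS: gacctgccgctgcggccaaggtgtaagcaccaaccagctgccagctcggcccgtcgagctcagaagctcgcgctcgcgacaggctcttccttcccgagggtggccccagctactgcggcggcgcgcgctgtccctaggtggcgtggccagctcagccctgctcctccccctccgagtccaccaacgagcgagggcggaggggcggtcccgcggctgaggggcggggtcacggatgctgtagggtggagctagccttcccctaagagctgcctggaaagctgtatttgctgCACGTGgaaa
ATIC: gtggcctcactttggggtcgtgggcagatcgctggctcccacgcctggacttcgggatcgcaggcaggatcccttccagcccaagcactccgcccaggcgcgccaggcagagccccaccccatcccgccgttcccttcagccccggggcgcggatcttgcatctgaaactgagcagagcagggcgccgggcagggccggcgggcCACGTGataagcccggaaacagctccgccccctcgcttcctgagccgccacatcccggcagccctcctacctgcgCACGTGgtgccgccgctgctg
PRPS2: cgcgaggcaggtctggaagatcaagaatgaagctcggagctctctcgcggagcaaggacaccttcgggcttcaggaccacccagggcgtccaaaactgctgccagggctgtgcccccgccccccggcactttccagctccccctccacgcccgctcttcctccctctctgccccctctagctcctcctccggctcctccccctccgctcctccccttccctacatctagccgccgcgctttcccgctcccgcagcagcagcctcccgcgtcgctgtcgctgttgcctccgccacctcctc
PAICS also has windows at chr4:56410257-56410556 and chr4:56436010-56436309, neither with the E-box, and the one shown was picked for holding it. The start of PPAT and that of the PAICS window shown are 137 bases apart on opposite strands, and these windows overlap by 236 bases. The E-box in both is the same site, chr4:56435792-56435797, which begins at position -182 from the PPAT start and at +41 from this PAICS start. In ATIC the motif begins at -46 and at +30, and the PRPS2 window has none. It was found in 3 of the 12 member windows (in 3 of the 8 genes) and in 7.26% of the 35116 windows of the table. The site shared by PPAT and PAICS counts for both genes. The GC box GGGCGG, searched on both strands like the other motifs, was in 9 of 12 against 45% of all windows and the ETS core CCGGAA in 2 of 12 against 17.2%. The 12 windows are not separate, since those of PPAT and PAICS overlap and GART has windows that overlap each other. A match is a run of letters and not a measured binding site.

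MYC T58A cells had more transcript of 9 of the 10 enzymes than Parental cells, from 1.15-fold for ADSL to 1.76-fold for PRPS2, and IMPDH2 was the one that did not pass the test. Calls are at a Benjamini-Hochberg adjusted p under 0.05 over all 17012 genes tested with limma. Across all genes 63.8% were called in this comparison and 30.1% were called higher. None of the 10 was called lower by limma, and none at an unadjusted p under 0.05, by edgeR or by DESeq2 (33.7% of all genes were lower). Libraries of both groups did not overlap for 9 of the 10, as for 72.7% of all genes. The median member stood at 0.42 on the log2 scale against -0.02 for all genes tested.

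Resistant cells differed from Parental in 5 of the 10, with 4 higher and 1 lower, where 51.6% of all genes were called, 27.2% higher and 24.4% lower. PRPS1 rose 1.49-fold, GMPS 1.18-fold, ATIC 1.14-fold and PPAT 1.13-fold, and PFAS fell 1.19-fold. That share of called members was near the background, as was the number without overlap between the libraries (5 of 10, and 63.5% of all genes), and the median member (log2 0.08) lay close to that of all genes (0.01).

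The libraries labelled shMYC2 held less of 7 enzymes than Resistant and more of 1, where 79.2% of all genes were called, 43% lower and 36.2% higher. PRPS2 fell 2.54-fold, ADSL 1.7-fold, PAICS 1.56-fold and IMPDH2 1.49-fold, whereas GART rose 1.67-fold. The libraries did not overlap for 9 of 10 members and for 81.3% of all genes. The median member was at -0.28 against -0.08 for all genes. The median of all genes moved to 0.15 under quantile and to -0.22 under total-count scaling, and the 8 calls on members kept their direction under both, with GMPS also called lower (-0.25 under each). In the libraries labelled shMYC1, 2 enzymes were higher than in Resistant (PRPS2 1.26-fold and PFAS 1.17-fold) and 4 were lower (PRPS1 1.24-fold, ATIC 1.18-fold, GMPS 1.15-fold and GART 1.11-fold), where 57.1% of all genes were called, 27% higher and 30.1% lower, and 5 of 10 members did not overlap against 60.1% of all genes. PPAT was also called lower under quantile (-0.15) and total-count scaling (-0.17) and without library 2 labelled shMYC1 (-0.16), PAICS was called lower under quantile scaling (-0.11), ADSL under total-count scaling (-0.10), and IMPDH2 was called higher without library 2 labelled shMYC1 (0.14). With those 2 groups fitted alone GMPS and GART were not called (-0.20 and -0.15). The comparisons share their Parental or Resistant libraries and are not independent of each other. The p-values measure the spread between these libraries alone, and no independent resistant population stands behind them.

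**Figure D1:**
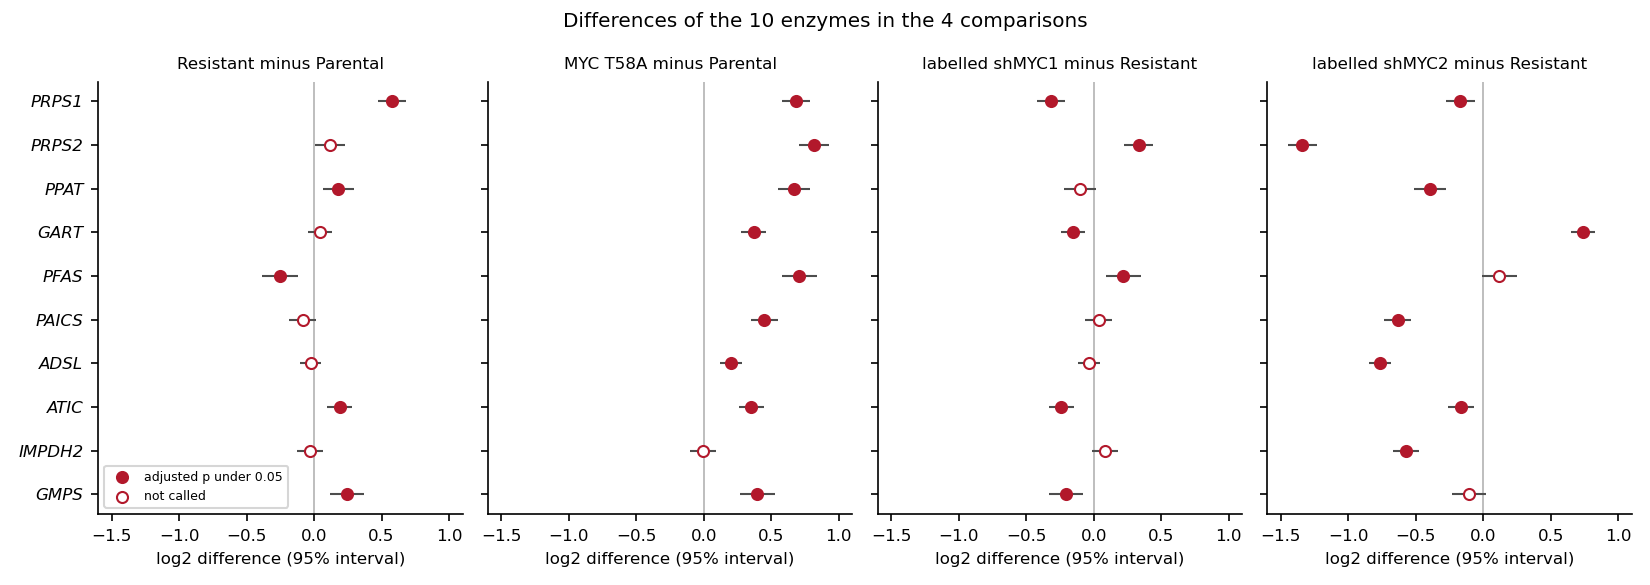
Log2 difference of each of the 10 enzymes with its 95% interval in the 4 comparisons (limma, 3 libraries against 3); filled points passed an adjusted p of 0.05 and open points did not. With MYC T58A 9 of 10 points lie above 0, and in the libraries labelled shMYC2 PRPS2 (-1.34) and GART (0.74) lie farthest to either side.

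PRPS1 and PRPS2, the paired X-linked synthetases that make PRPP, moved separately. PRPS1 stood at 2830.4, 2839 and 2762 in the Parental libraries, at 4297, 4088 and 4192 in Resistant and at 4606, 4517 and 4406 in MYC T58A. It stood at 3188, 3654 and 3296 in the libraries labelled shMYC1 and at 3888, 3635 and 3654 in those labelled shMYC2. The 3 Parental libraries lay below all other 12. PRPS1 was higher in Resistant (log2 0.58, SE 0.0494, adjusted p = 2.17e-08) and in MYC T58A (log2 0.68, SE 0.0494, adjusted p = 1.38e-09), and the test did not tell those 2 groups apart (adjusted p = 0.0685, 95% interval of the difference before adjustment 0.00 to 0.21). Without library 1 or 2 labelled shMYC1, which enter this difference through the shared spread alone, it was called at the same size. The difference was also called under total-count scaling (0.13), and the libraries of those 2 groups did not overlap. Next came the libraries labelled shMYC2 and then those labelled shMYC1, 0.14 lower. These overlap at 1 value, and that call was lost without library 1 or 3 labelled shMYC1 or library 1 labelled shMYC2 (0.10 to 0.13) and under quantile or total-count scaling (0.06 and 0.07).

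PRPS2 stood at 3480.4, 3629.7 and 3444 in Parental, 3945, 4001 and 3520.4 in Resistant and 6411, 6037 and 6145 in MYC T58A. Values were 4971, 4534 and 4928 in the libraries labelled shMYC1 and 1485, 1506 and 1527 in those labelled shMYC2. Parental and Resistant overlapped, while each of the other 3 groups lay apart, with MYC T58A on top and the libraries labelled shMYC2 at the bottom. The highest group mean was 4.12 times the lowest, the widest span among the 10 enzymes. PRPS2 was higher in MYC T58A than in Parental (log2 0.82, SE 0.0521, adjusted p = 2.44e-10) and lower in the libraries labelled shMYC2 than in Resistant (log2 -1.34, SE 0.0521, adjusted p = 4.76e-14). Resistant and Parental differed by 0.12 (adjusted p = 0.0684). That difference was called without Resistant library 3 (0.18), without library 2 labelled shMYC1 (0.12), under total-count scaling (0.13) and with the 2 groups fitted alone (0.12).

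PPAT, on chromosome 4 beside PAICS, transfers the first nitrogen onto PRPP and is the committed step. It stood at 2019.5, 2057 and 2009 in Parental, 2277, 2359.6 and 2262 in Resistant and 3272, 3282 and 3114 in MYC T58A. The libraries labelled shMYC1 held 1957, 2346 and 2149.8, overlapping both Parental and Resistant, and those labelled shMYC2 held 1773, 1785 and 1686, below all others. Its level in MYC T58A was 1.59-fold above that of Parental (log2 0.67, SE 0.0551, adjusted p = 7.71e-09). The rise in Resistant was small (log2 0.18, SE 0.0551, adjusted p = 0.0104), and the fall in the libraries labelled shMYC2 was 1.32-fold (log2 -0.40, SE 0.0551, adjusted p = 2.95e-06). Per kilobase of exon PPAT had the lowest level of the 10 in Parental cells, 372.9 normalized reads.

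GART, on chromosome 21, a single protein that carries out 3 of the steps after PPAT, was the one enzyme that was highest in the libraries labelled shMYC2. Its values were 6626, 6689 and 6733 in Parental, 7256, 6702 and 6755 in Resistant and 8612, 8822 and 8453 in MYC T58A. They were 6023, 6493 and 6116 in the libraries labelled shMYC1 and 11519, 11268 and 11758 in those labelled shMYC2. The libraries labelled shMYC2 all lay above MYC T58A, which lay above the other 9. GART was higher there than in Resistant (log2 0.74, SE 0.0425, adjusted p = 1.45e-11) and higher in MYC T58A than in Parental (log2 0.37, SE 0.0425, adjusted p = 5.83e-07), while Resistant and Parental overlapped (log2 0.05, interval -0.04 to 0.14). The fall in the libraries labelled shMYC1 against Resistant (log2 -0.15, SE 0.0425, adjusted p = 0.00513) was not called with those 2 groups fitted alone. Exons of GART and of SON, on the other strand, overlap by 275 bases, and the strand setting of the counting was not stated, so a part of these reads could belong to SON.

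PFAS, on chromosome 17, adds the next nitrogen. It stood at 4902, 4731 and 4889 in Parental, 4129, 4009 and 4053 in Resistant and 7839, 7974 and 7893 in MYC T58A. With the shMYC1 label there were 5283, 4144 and 4837, library 2 well under the other two, and with the shMYC2 label 4283, 4516 and 4425. All MYC T58A libraries lay above the other 12. The gene rose 1.63-fold in MYC T58A (log2 0.71, SE 0.0616, adjusted p = 1.57e-08) and was the only enzyme called lower in Resistant (log2 -0.25, SE 0.0616, adjusted p = 0.0022). Against Resistant, the libraries labelled shMYC2 differed by 0.12 (adjusted p = 0.0904), with no overlap. The sign of that difference turned under quantile (-0.01) and total-count scaling (-0.03), and it was called, at 0.12, without library 1 or 2 labelled shMYC1. The difference was also called by edgeR and with the 2 groups fitted alone, but not by DESeq2.

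PAICS, which joins a carboxylase and a synthetase in one protein, was the most counted of the 10. It stood at 19307, 19519.9 and 18881 in Parental, 19508, 17865 and 17141 in Resistant and 27169.7, 26877 and 24792 in MYC T58A. The libraries labelled shMYC1 held 18547, 18928 and 18361, within the range of the 6 Parental and Resistant libraries, and those labelled shMYC2 11860.2, 11496 and 11684, below all others. PAICS rose in MYC T58A (log2 0.45, SE 0.0473, adjusted p = 1.83e-07) and fell in the libraries labelled shMYC2 (log2 -0.64, SE 0.0473, adjusted p = 5.94e-10). Resistant against Parental gave -0.08 (adjusted p = 0.149), which was called lower without Resistant library 1 (-0.14) and stood at 0.02 under quantile scaling. GENCODE release 29 names 7 pseudogenes of PAICS, 2 each of PRPS1 and PPAT and 1 of GMPS, and the sources do not say how reads that match such copies were counted.

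ADSL splits off fumarate in both the inosine and the adenosine branch, and ATIC closes the purine ring; their genes lie on chromosomes 22 and 2. ADSL stood at 4471, 4587 and 4477 in Parental, 4573, 4381 and 4342 in Resistant and 4216, 4432 and 4349 in the libraries labelled shMYC1, with Resistant overlapping the other two. It stood at 2576, 2621 and 2606 in the libraries labelled shMYC2 and at 5119, 5240.2 and 5193 in MYC T58A, below and above all of those. The fall in the libraries labelled shMYC2 was 1.7-fold (log2 -0.77, SE 0.0382, adjusted p = 1.75e-12) and the rise in MYC T58A 1.15-fold (log2 0.20, SE 0.0382, adjusted p = 0.000176), the smallest of the 9 rises. Exons of ADSL share 1344 bases with AL022238.4 on the same strand, so its counts are uncertain to that extent.

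ATIC stood at 4995, 5114 and 5169 in Parental, 6029, 5775 and 5616 in Resistant and 6655, 6720.4 and 6151 in MYC T58A. Both hairpin labels gave values near Parental, 4962, 4725 and 5078 for shMYC1 and 5174, 5207 and 5146 for shMYC2. All Resistant libraries lay above all Parental ones and all MYC T58A libraries above Resistant. ATIC was higher in Resistant than in Parental (log2 0.19, SE 0.0445, adjusted p = 0.00167) and in MYC T58A than in Parental (log2 0.35, SE 0.0445, adjusted p = 1.77e-06). It was lower than in Resistant in the libraries labelled shMYC1 (log2 -0.24, SE 0.0445, adjusted p = 0.00017) and shMYC2 (log2 -0.17, SE 0.0445, adjusted p = 0.0025). The highest group mean was only 1.32 times the lowest, as for GMPS.

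IMPDH2, the rate-limiting enzyme of guanine nucleotide synthesis, lies on chromosome 3 and was the member whose difference in MYC T58A did not pass the test. It stood at 14204, 14071 and 14290.0 in Parental, 14420.2, 13725 and 13530.0 in Resistant and 14341, 14502 and 13578 in MYC T58A, which overlap. The libraries labelled shMYC1 held 15269, 13707 and 15250.5 and those labelled shMYC2 9104, 9422 and 9452, below all others. MYC T58A against Parental gave a log2 difference of -0.01 (interval -0.10 to 0.09, adjusted p = 0.929), whose sign turned under quantile (0.04) and total-count scaling (0.03). In the libraries labelled shMYC2 IMPDH2 was lower than in Resistant (log2 -0.57, SE 0.046, adjusted p = 1.69e-09). Per kilobase of exon it had the highest level of the 10 in Parental cells, 5117 normalized reads, ahead of PAICS at 2559 and ATIC at 1297. Its exons overlap an antisense gene by 93 bases.

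IMPDH1, the paralog of IMPDH2 and not among the 10, stood at 1943, 1816 and 1794 in Parental and at 3021, 3003 and 3118 in MYC T58A. It stood at 1641, 1598 and 1716 in Resistant, at 2256, 1974 and 2252 in the libraries labelled shMYC1 and at 357.4, 351.5 and 354.0 in those labelled shMYC2. IMPDH1 rose in MYC T58A (log2 0.72, SE 0.0547, adjusted p = 2.58e-09) and fell 4.66-fold in the libraries labelled shMYC2 (log2 -2.22, SE 0.0547, adjusted p = 6.95e-17). GENCODE release 29 names 7 pseudogenes of IMPDH1, and reads that paralogs share were not examined for either pair.

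GMPS, also on chromosome 3, adds the amino group that makes guanosine monophosphate. It stood at 5503, 5493 and 5207 in Parental, 6528, 6685 and 5985 in Resistant and 7269, 7224 and 6842 in MYC T58A. Libraries labelled shMYC1 had 5649, 5009 and 6040.4, again with library 2 lowest, and those labelled shMYC2 5807, 5839.7 and 6142. Resistant and MYC T58A lay above Parental without overlap. GMPS was higher in Resistant (log2 0.24, SE 0.06, adjusted p = 0.00236) and in MYC T58A (log2 0.40, SE 0.06, adjusted p = 1.48e-05). MYC T58A also exceeded Resistant (0.15, adjusted p = 0.0314), a call lost without Resistant library 3 (0.11) or MYC T58A library 1 or 2 (0.14). The difference between the libraries labelled shMYC2 and Resistant was -0.11 (adjusted p = 0.106) and was called without Resistant library 3 (-0.16), without library 2 labelled shMYC1 (-0.11), and under quantile or total-count scaling (-0.25).

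**Figure D2:**
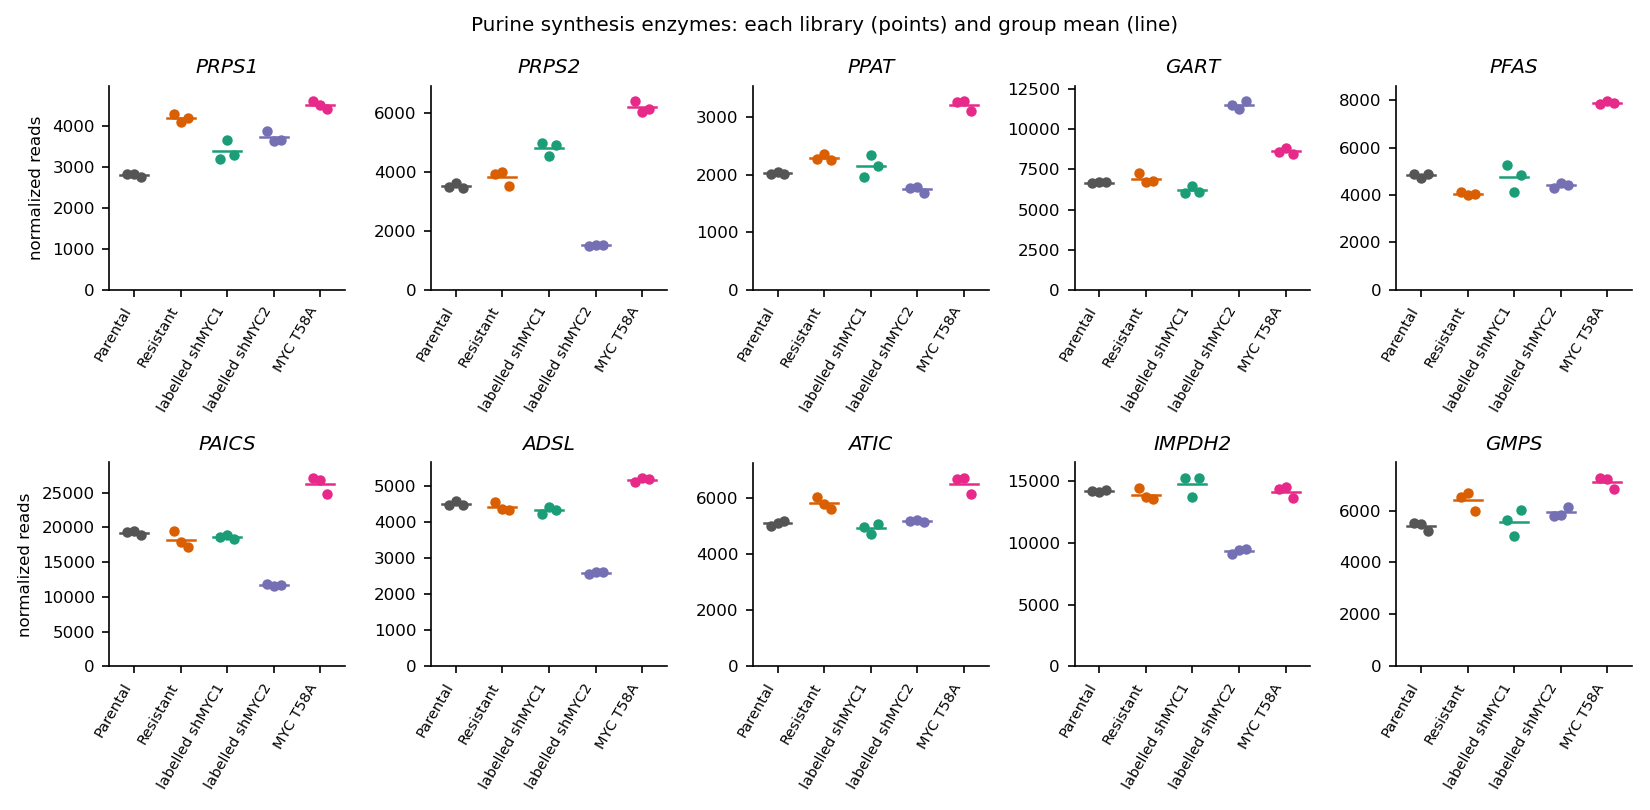
Normalized reads of each of the 10 enzymes in all 15 libraries (points) with the group mean (line), by group, on axes that start at 0. MYC T58A is highest for 8 of 10 and the libraries labelled shMYC2 are lowest for 5 of 10, and GART is highest in the latter.

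In the order of levels over the 5 groups, MYC T58A came first for 8 of 10 enzymes, all but GART and IMPDH2. The libraries labelled shMYC2 came last for 5, PRPS2, PPAT, PAICS, ADSL and IMPDH2. MYC transcript was highest in those same libraries, at 7817 ± 260, ahead of MYC T58A. Of 40 pairs of groups next to each other in these orders, 19 differed by the test. The pairs that did not lay mostly among Parental, Resistant and the libraries labelled shMYC1. Such pairs come from ranking the same means and have no share over all genes beside them, so the count describes the orders alone. Compared directly, MYC T58A was higher than the libraries labelled shMYC2 for 9 enzymes and lower for GART, where 79.3% of all genes were called, 42.5% higher and 36.8% lower. Against Parental, the libraries labelled shMYC1 were higher for 2, PRPS1 (log2 0.26, SE 0.0494, adjusted p = 0.000371) and PRPS2 (log2 0.45, SE 0.0521, adjusted p = 2.15e-06), where 39.6% of all genes were called, 19.7% higher and 19.9% lower. None was lower by limma or edgeR, whereas 1, GART, was lower at an unadjusted p under 0.05 and by DESeq2. GART was also called lower without Resistant library 1 (-0.11) or library 2 labelled shMYC1 (-0.14), PPAT higher without library 1 labelled shMYC1 (0.15) and IMPDH2 higher without library 2 labelled shMYC1 (0.11).

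Ratios of 2 genes within a library do not depend on how it was scaled, and 3 pairs were examined. The ratio of PRPS1 to PRPS2 was 0.813, 0.782 and 0.802 in Parental, 1.09, 1.02 and 1.19 in Resistant and 2.62, 2.41 and 2.39 in the libraries labelled shMYC2. It was 0.705 ± 0.0882 in the libraries labelled shMYC1 and 0.728 ± 0.0176 in MYC T58A. PRPS1 reads thus outnumbered those of PRPS2 in Resistant and in the libraries labelled shMYC2, and in none of the 9 libraries of the other groups. The ratio of IMPDH2 to IMPDH1 was 7.31, 7.75 and 7.97 in Parental, 4.75, 4.83 and 4.36 in MYC T58A and 25.5, 26.8 and 26.7 in the libraries labelled shMYC2. All MYC T58A libraries lay below the other 12 and all those labelled shMYC2 above them. PAICS to PPAT, the pair with a shared start region, ran from 6.69 ± 0.244 in the libraries labelled shMYC2 over 7.9 ± 0.573 in Resistant and 8.15 ± 0.174 in MYC T58A to 9.48 ± 0.0805 in Parental. In exact permutation tests, two-sided and with 3 libraries on either side, the smallest p is 0.1, and 10 of the 12 differences in the 4 comparisons reached p = 0.1 (0.12 when adjusted over the 12), so that none can pass 0.05. The remaining ones were IMPDH2 to IMPDH1 in Resistant against Parental (exact p = 0.2) and PAICS to PPAT in the libraries labelled shMYC1 against Resistant (exact p = 0.3).

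**Figure D3:**
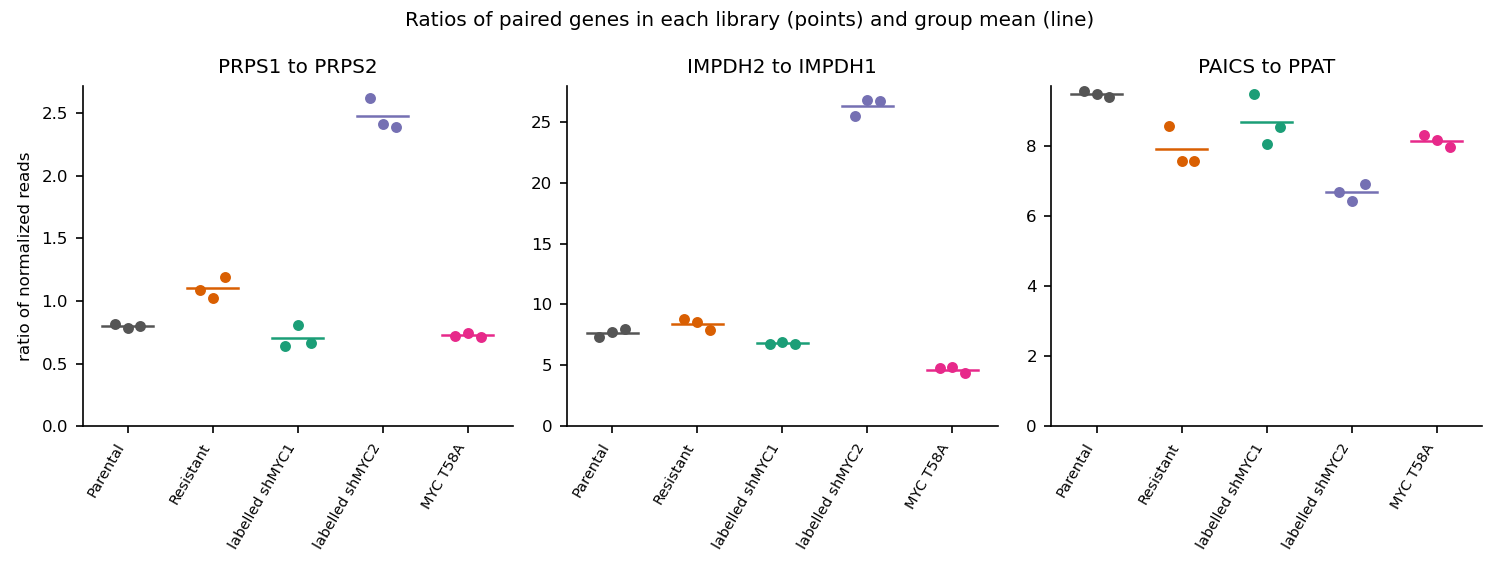
Ratio of normalized reads of 3 gene pairs in each of the 15 libraries (points) with the group mean (line), on linear axes from 0. In the libraries labelled shMYC2 PRPS1 to PRPS2 (2.47) and IMPDH2 to IMPDH1 (26.3) are highest, and PAICS to PPAT (6.69) is lowest.

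To show how far the genes around each enzyme differed in the same way, each was set beside the median log2 difference of its 50 nearest tested genes. That median was taken as a fixed value. The calls below use the SE of the enzyme alone and leave out the uncertainty of the median. Neighbours could be taken off for 14194 tested genes, over which the p-values were adjusted anew. Of those genes, 64.8% were then called in MYC T58A and 52.5% in Resistant against Parental. Against Resistant the shares were 59% in the libraries labelled shMYC1 and 79.9% in those labelled shMYC2. The counts below stand beside these shares. With MYC T58A, 8 of the 9 rises went beyond the neighbours, whose medians ran from -0.28 (PRPS2) to 0.28 (GMPS). GMPS rose by 0.40 where its neighbours rose by 0.28, and the remainder (0.12) was not called. In Resistant, PRPS1 (0.58, neighbours 0.30) remained higher and PFAS (-0.25, neighbours 0.09) remained lower. ATIC (0.19) and GMPS (0.24) matched their neighbours (0.18 and 0.23), and PPAT was not called beyond them (0.08). PAICS was called lower against its neighbours (-0.19). The largest fall of all, PRPS2 in the libraries labelled shMYC2 (-1.34), equalled the median of its neighbours (-1.34). The same held for PAICS (-0.64, neighbours -0.65). PPAT, in the same region, fell by less than its neighbours and was called higher once they were taken off (0.26). ADSL (-0.77, neighbours -0.21) and IMPDH2 (-0.57, neighbours -0.07) fell beyond theirs, as did ATIC (-0.17, neighbours 0.14) and PRPS1 (-0.17, neighbours -0.05). GART (0.74) lay in a region that was higher as a whole (0.58), and was still called higher beyond it (0.16), as was PFAS (0.60, its neighbours at -0.48). For the libraries labelled shMYC1, the falls of ATIC and GMPS equalled those of their neighbours (-0.25 and -0.20) and that of PRPS1 was no longer called (-0.10). PRPS2 (0.27) and PFAS (0.28) stayed higher and GART (-0.10) lower, and ADSL was called lower (-0.18).

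**Figure D4:**
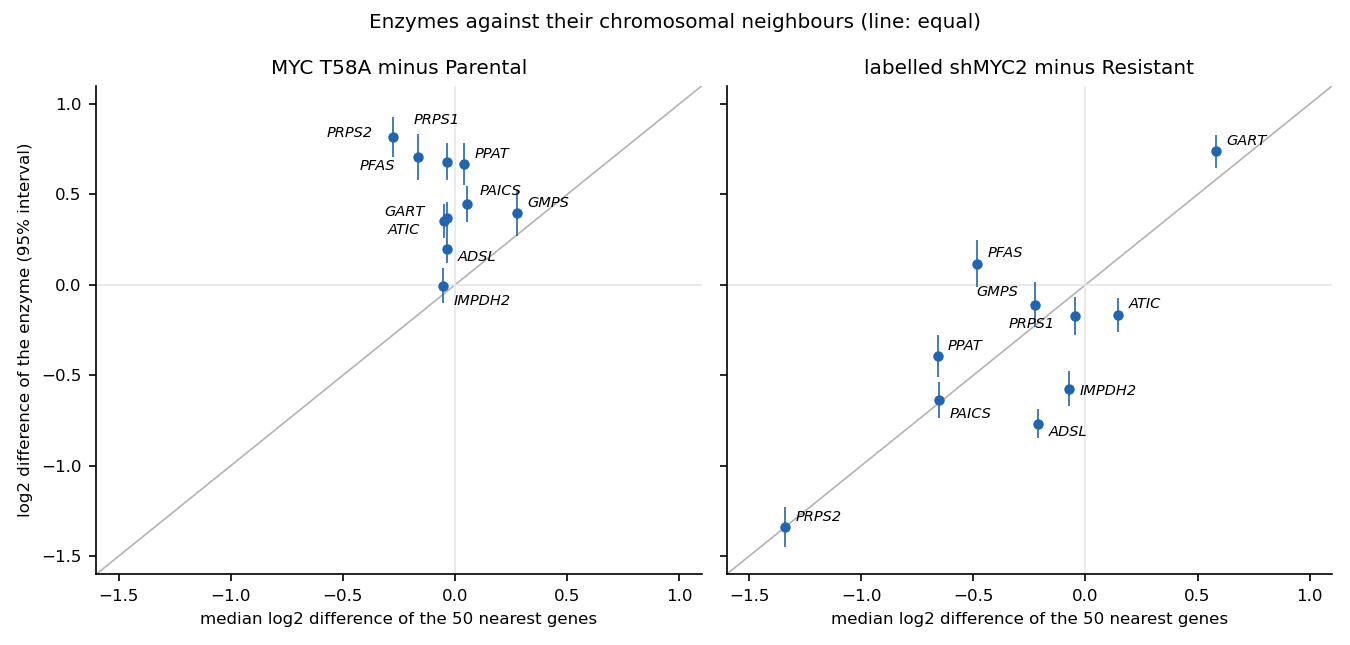
Log2 difference of each enzyme (vertical axis, with its 95% interval) against the median of its 50 nearest tested genes (horizontal axis) in 2 comparisons, with the line where both are equal. With MYC T58A, 9 enzymes lie above the line by at least 0.12; in the libraries labelled shMYC2 PRPS2 and PAICS lie on it, ADSL and IMPDH2 below it and PFAS above it.

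The relatives of the pathway and the lists that follow are counts beside the shares of all genes called: 63.8% in MYC T58A and 51.6% in Resistant against Parental, and, against Resistant, 57.1% in the libraries labelled shMYC1 and 79.2% in those labelled shMYC2. A count near these shares is not a result about a list. Of 5 relatives tested, PRPSAP1, PRPSAP2 (regulatory partners of the PRPP synthetases), IMPDH1, ADSS and ADSSL1 (adenylosuccinate synthases), 2 were higher and 2 lower in MYC T58A than in Parental. PRPSAP2 rose from 1040.2 ± 46.9 to 1879.7 ± 87 (log2 0.85, SE 0.0613, adjusted p = 1.22e-09), and ADSS, which opens the adenosine branch, fell from 4058 ± 59.9 to 3464 ± 99.1 (log2 -0.23, SE 0.0569, adjusted p = 0.00194), less than its neighbours did (remainder 0.08). In Resistant 2 were higher and 1 lower, led by ADSSL1 (from 35.5 ± 6.16 to 59.1 ± 4.65) and IMPDH1 (from 1851 ± 80.4 to 1652 ± 59.7), whose call was lost without Parental library 1 (-0.13) or Resistant library 2 (-0.14). In the libraries labelled shMYC1 3 were higher and 2 lower than in Resistant, and in those labelled shMYC2 2 and 3. PRPSAP1 rose in the latter from 752.6 ± 30.5 to 1478 ± 57.2.

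Salvage and breakdown of purines were represented by 18 tested genes, of which 12 were higher and 4 lower in MYC T58A than in Parental (median log2 0.39), where 30.1% of all genes were higher and 33.7% lower. GDA, the guanine deaminase, rose from 1333 ± 35.2 to 7169 ± 721, and XDH, the xanthine oxidase gene, fell from 184.3 ± 8.97 to 52.6 ± 10.5. In Resistant 10 were higher and 4 lower (median 0.20), beside 27.2% and 24.4% of all genes. AMPD3, which deaminates adenosine monophosphate, rose from 99.1 ± 5.83 to 373.4 ± 20.4 there and stood at 39.3 ± 3.27 in the libraries labelled shMYC1. The libraries labelled shMYC2 had 8 higher and 9 lower than Resistant (median -0.11), beside 36.2% and 43% of all genes, with GDA at 12.5 ± 3.38 against 4499 ± 149 and XDH at 939.7 ± 23.4 against 105.8 ± 3.03. Those labelled shMYC1 had 8 higher and 7 lower (median -0.04), beside 27% and 30.1%. Of 10 kinases that charge purine nucleotides, 2 were higher and 4 lower in MYC T58A, 4 and 3 in Resistant, 4 and 3 in the libraries labelled shMYC1, and 7 and 2 in those labelled shMYC2. The adenylate kinase AK5 led the last, from 71.4 ± 3.23 to 3571 ± 46.6.

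One-carbon and serine genes supply the formyl groups and glycine of the ring. Of 16 tested, 9 were higher and 4 lower in MYC T58A than in Parental (median log2 0.19), beside 30.1% and 33.7% of all genes, with PSAT1 of serine synthesis up from 4827 ± 79.6 to 9784 ± 383. Resistant had 9 higher and 5 lower (median 0.17), beside 27.2% and 24.4%, with the mitochondrial folate enzyme ALDH1L2 up from 531.7 ± 17.7 to 2734 ± 118. In the libraries labelled shMYC2, 11 were lower and 5 higher than in Resistant (median -0.38), beside 43% and 36.2% of all genes. PHGDH, the first enzyme of serine synthesis, fell from 4726 ± 173 to 10.1 ± 3.36 there, while the folate carrier SLC19A1 rose from 745.8 ± 38.3 to 3067 ± 60.1. Those labelled shMYC1 had 6 higher and 5 lower, beside 27% and 30.1%, with ALDH1L2 at 497.6 ± 33.

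For the next 3 lists, 30.1% of all genes were higher and 33.7% lower in MYC T58A, and 27.2% and 24.4% in Resistant, against Parental. Against Resistant the shares were 27% and 30.1% in the libraries labelled shMYC1 and 36.2% and 43% in those labelled shMYC2. Of 7 pentose phosphate genes, which supply ribose, 2 were higher and 2 lower in MYC T58A, with RPIA up from 1657 ± 59.2 to 2739 ± 101. In Resistant 1 was higher and 3 lower, in the libraries labelled shMYC1 4 and 1, and in those labelled shMYC2 3 and 4. Of 6 pyrimidine synthesis genes, 3 were higher and 1 lower in MYC T58A (median log2 0.28), led by DHODH (from 698.7 ± 48.6 to 1053 ± 24.5), and 2 and 3 in Resistant (median -0.11). The libraries labelled shMYC1 had 4 higher and 1 lower, and those labelled shMYC2 2 and 4, where CTPS2 fell 5.56-fold (log2 -2.47, SE 0.0564, adjusted p = 2.3e-17) and TYMS rose from 4887 ± 35.9 to 7513 ± 57.5. Of 6 proliferation markers, 4 were lower and 1 higher in MYC T58A, with MKI67 down from 16645 ± 346 to 11689.7 ± 787 and MCM2 up from 6522 ± 144 to 9128 ± 190. Their summed reads ran from 68511 to 69237 in Parental, 59549 to 63453 in Resistant, 74908 to 76212 in the libraries labelled shMYC1, 52096 to 55071 in those labelled shMYC2 and 56785 to 61310.0 in MYC T58A. Their part in the enzymes' differences was not tested.

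**Figure D5:**
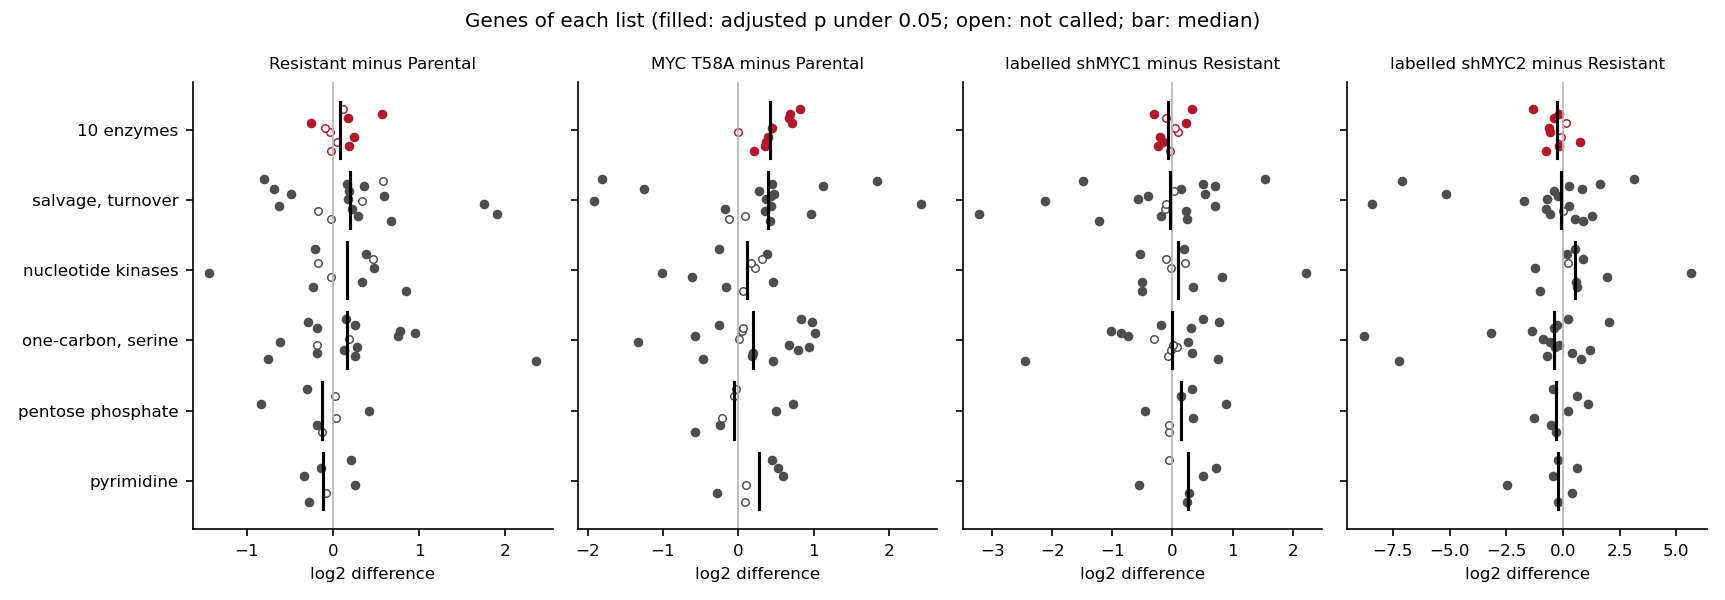
Log2 difference of each gene of the purine enzymes and of the related lists (rows) in the 4 comparisons; filled points were called at an adjusted p under 0.05, open points were not, and bars mark the median of each list. With MYC T58A the enzymes' median is 0.42, that of salvage genes 0.39 and that of one-carbon genes 0.19.

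The members did not move as 1 block. Of their 45 pairs, 39 had a Pearson r above 0 over the 15 libraries, with a median of 0.5, from 0.96 for PAICS and ADSL to -0.88 for GART and IMPDH2. These are descriptions over libraries that fall into 5 groups and share their scaling. By the same measure, the genes whose log2 values lay closest to the mean of the 10, out of 11352 with a mean of at least 100, were NOLC1 (r = 0.987) and NOL8 (0.985), both of the nucleolus, ME2, a mitochondrial malic enzyme (0.986), AMER1 (0.983) and ELAC2, which processes transfer RNA (0.982). MYC itself had an r of -0.07 with that mean and ranked 6014.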

How the data were processed

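The submitters' processing notes list cutadapt, Trim Galore, STAR, DESeq2 and HTSeq, without roles or versions. The library kit was a stranded one from Kapa, per the labels. Genome build, annotation and strand setting: not given in the sources used here. As deposited by the authors, the signal is 1 value per gene symbol, read from the values as counts over 1 size factor per library. Each of the 15 columns holds whole multiples of 1 step (0.881 to 1.08), so whole reads came back for 100% of values within 0.01. Libraries are numbered in column order, and each column names its group.

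Computed here were log2(value + 1), a filter of at least 10 in at least 3 libraries (17012 genes tested, 1310 left out) and a limma 3.58.1 fit (trend, robust; R 4.3.3) with 1 mean for each of the 5 groups, adjusted by Benjamini-Hochberg over all tested genes. The added 1 shrinks differences of genes with few reads. edgeR 4.0.16 and DESeq2 1.42.0 on the recovered reads, other pseudocounts (0.1, 10), filters (none, 50), scalings, an adjusted p under 0.01, a minimum change of 0.5, fits of 2 groups alone or without the libraries labelled shMYC2, and each library left out were alternatives. Alternatives for the PAICS to PPAT ratio were chosen after seeing the data. Neighbours are the 50 nearest tested genes in GENCODE release 29 order, which placed 81.4% of the table's genes and 14217 tested ones. That release also gave exon lengths and overlaps. Promoters are from RefSeq.

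The members and lists were chosen with earlier results of these data known. Named genes are the 10 enzymes, MYC, the called genes of each list with the largest rise and fall in each of the 4 comparisons (mean of at least 50 in the higher group), from which the text draws, the 5 genes most alike, and melanocyte markers. The plan expected counts or normalized values, and the test for the latter was used. Some genes that this rule names are not reported here. Melanocyte markers outside the table are not analysed here. The 1 immune marker in the table, CD68, ran from 15.0 to 61.1.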

Additional observations from a re-analysis of the deposited data

How the results depend on the processing

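Libraries labelled with a number in the titles could not be matched to columns. No paired analysis was possible because the table's columns are numbered from 1 to 15 across groups and carry no replicate number. Of the log2 differences recomputed under the alternatives, 3667 kept direction and side of the threshold, 79 lost a call, 44 gained one and 35 turned sign; the cause was not tested. Each member had at least 1485 normalized reads in every library, so few reads limit none of them, and the 3 libraries a group limit how small a difference can be called.

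Tested against a change of 0.5 (log2), which asks for more than a difference from 0, members higher and lower numbered 0 and 0 in Resistant against Parental, and 4 were higher in MYC T58A against Parental. Against Resistant there were 0 and 0 for the libraries labelled shMYC1, and for those labelled shMYC2 3 were lower and GART was higher. For shMYC1 against Parental 0 were higher, and for MYC T58A against shMYC2 0 were lower. In the last comparison 6 of the 10 had estimates past 0.5, all of them higher, and how many passed this test is not reported here. In the same order of comparisons, the test called 14.9%, 23.4%, 18.8%, 48.2%, 6.9% and 48.3% of all genes in either direction. With the neighbours' median taken off, the counts were 1 higher and 2 lower in Resistant. Against Resistant they were 2 higher and 2 lower for shMYC1 and 3 higher and 4 lower for shMYC2. They were 2 higher and 1 lower for shMYC1 against Parental and 9 higher and 0 lower for MYC T58A against shMYC2. Beside these stand 52.5%, 59%, 79.9%, 42.6% and 79.5% of the 14194 genes for which neighbours could be taken off, called in either direction. With 2 groups fitted alone, 2 were higher and 2 lower for shMYC1 against Resistant, and 2 higher and 7 lower for shMYC2 against Resistant. These fits called 8809 and 13594 of all 17012 genes. For the latter comparison edgeR also gave 2 higher and 7 lower, with 13543 of 17012 called. For shMYC1 against Parental, where 0 were lower, a filter of 50 and DESeq2 gave 1 and quantile and total-count scaling gave 3 each. These called 6085 of 13439 genes and 6648, 6973 and 6964 of 17012, in the same order. Leaving out 1 library at a time, 4 to 5 were higher and 1 to 2 lower in Resistant against Parental (2 lower without Resistant library 1, which added PAICS), and 9 and 0 in MYC T58A. It gave 2 to 3 and 4 to 5 for shMYC1 and 1 to 2 and 7 to 8 for shMYC2 against Resistant (2 higher without library 1 or 2 labelled shMYC1, which added PFAS). It gave 2 to 3 and 0 to 1 for shMYC1 against Parental (1 lower without Resistant library 1 or library 2 labelled shMYC1, GART). In the same order, these fits called 7864 to 9359, 10064 to 11281, 8925 to 9743, 13046 to 13739 and 5561 to 6785 of all 17012 genes. Without all libraries labelled shMYC2 no count of the other comparisons moved by over 1.5 times.

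Differences that turned sign with the neighbours' median taken off were, against Resistant, PPAT (0.26), PAICS (0.016) and GMPS (0.12) in the libraries labelled shMYC2 and ATIC (0.014) in those labelled shMYC1. In Resistant against Parental they were GART (-0.013), ADSL (0.047) and IMPDH2 (0.034), and in MYC T58A against Parental IMPDH2 (0.048), ADSS (0.077) and CTPS1 (0.14). Further ones were GART in MYC T58A against shMYC2 (0.24), PRPS2 (0.21), PPAT (0.30) and ATIC (-0.33) in shMYC2 against Parental, PFAS in shMYC2 against shMYC1 (0.37) and GUK1 in shMYC2 against Resistant (0.14). Under quantile scaling, PAICS (0.020) and IMPDH2 (0.016) turned in Resistant against Parental, PAICS (-0.11) and IMPDH2 (-0.054) in shMYC1 against Resistant, IMPDH2 (-0.038) and GMPS (-0.034) in shMYC1 against Parental, IMPDH2 in MYC T58A (0.039), PFAS in shMYC2 against Resistant (-0.00652) and ATIC in shMYC2 against Parental (-0.12). Under total-count scaling, PAICS turned in shMYC1 against Resistant (-0.034), IMPDH2 (-0.0080) and GMPS (-0.022) in shMYC1 against Parental, IMPDH2 in MYC T58A (0.031), PFAS in shMYC2 against Resistant (-0.028) and ATIC in shMYC2 against Parental (-0.11). Single libraries turned PAICS in shMYC1 against Resistant (-0.00446 without Resistant library 3; range over the libraries left out -0.00446 to 0.089) and IMPDH2 in MYC T58A against Parental (0.024 without MYC T58A library 3; -0.024 to 0.024). In shMYC1 against Parental they turned PFAS (0.063 without library 2 labelled shMYC1; -0.11 to 0.063) and GMPS (-0.022 without library 3 labelled shMYC1; -0.022 to 0.11). Calls gained under both quantile and total-count scaling were PPAT (-0.15 and -0.17) in shMYC1 and GMPS (-0.25 and -0.25) in shMYC2 against Resistant. Others were PFAS (-0.18 and -0.18) in shMYC2 against shMYC1 and, in shMYC1 against Parental, GART (-0.19 and -0.17), ADSL (-0.12 and -0.12) and ATIC (-0.11 and -0.11). Under total-count scaling alone they were PRPS2 in Resistant against Parental (0.13), PRPS1 in MYC T58A against Resistant (0.13) and ADSL in shMYC1 against Resistant (-0.10). Thus 6 were lower in shMYC1 against Resistant under each scaling (with PAICS under quantile scaling). None of the differences that turned with scaling or with 1 library had been called.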
